A study of Mus musculus with 18 samples.

Results

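The open chromatin around 10 genes of the endoplasmic reticulum (ER) stress response was examined in mouse liver: Hspa5, Hsp90b1, Xbp1, Atf4, Atf6, Ddit3, Ern1, Creb3l3, Dnajb9 and Trib3. The peak lists of 9 strains were merged into 51957 sites, and the 75 sites that overlapped the body of a member gene or lay within 20 kb of either of its ends were kept as member sites. All 10 of the genes had at least 1 site. The GENCODE M1 annotation holds 22380 protein-coding genes, and the share of them with a site is not given here.

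The livers came from male mice of 9 strains, 2 mice per strain and 18 samples in all. Every group was fed the high-fat, high-sucrose (HF/HS) diet for 8 weeks from 8 weeks of age, and no chow-fed or ER-stressed group was analysed here. Of the strains, 2 were recombinant inbred lines, BXH2/TyJ and BXH19/TyJ, each a mosaic of the genomes of C57BL/6J and C3H/HeJ, and 7 were inbred, namely these parents C57BL/6J and C3H/HeJ together with BALB/cJ, DBA/2J, A/J, CBA/J and AKR/J. FAIRE-seq recovers and sequences DNA that is free of nucleosomes after formaldehyde fixation, and the deposited lists hold 1 set of peaks per strain, in which both mice were already combined, so that values per strain have no replicate error and no test between strains was possible.

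The ER folds secreted and membrane proteins, and hepatocytes, which secrete most plasma proteins, carry a heavy load of them. When unfolded proteins build up, membrane sensors such as the products of Ern1 and Atf6 are activated, and transcription factors that include the products of Xbp1, Atf4 and Ddit3 raise the output of chaperones, degradation enzymes and, under lasting stress, genes that promote cell death. The ER stress response element (ERSE) is the promoter sequence through which cleaved ATF6 and spliced XBP1 act on chaperone genes.

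The sequences that follow are the members' promoter stretches that hold an ERSE or, for Trib3, another element, the CARE described below. The ERSE was sought as CCAAT and CCACG separated by 9 bases, on both strands, from 250 bases before to 50 bases after each annotated start of a protein-coding transcript. It was found in 3 of the 10 members, Hspa5, Hsp90b1 and Xbp1, and in 30 of 22372 protein-coding genes (0.134%). The element was sought for its known role at chaperone genes such as Hspa5 and Hsp90b1, so no enrichment is read from these counts. The CARE, a composite site of C/EBP and ATF factors sought as TGATGNAA, was found in 1 member, Trib3, and in 5.54% of the genes. In each sequence the capitals mark the match, in mm9 and in the direction of the gene. The Hspa5 stretch is the 250 bases before the RefSeq start site (chr2:34627360-34627609, plus strand, from the RefSeq promoter table of build GRCm38.p6, identical in mm9), and the Hsp90b1 (chr10:86168255-86168504, minus strand) and Trib3 (chr2:152169769-152170018, minus strand) stretches are the 250 bases before the GENCODE M1 start. For Xbp1 the match is given with 5 bases on either side (chr11:5420904-5420932, plus strand).
Hspa5: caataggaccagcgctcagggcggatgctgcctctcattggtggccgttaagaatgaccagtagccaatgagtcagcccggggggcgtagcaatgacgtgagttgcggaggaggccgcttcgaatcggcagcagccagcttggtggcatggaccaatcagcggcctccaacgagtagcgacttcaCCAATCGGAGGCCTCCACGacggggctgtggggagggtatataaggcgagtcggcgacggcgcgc
Hsp90b1: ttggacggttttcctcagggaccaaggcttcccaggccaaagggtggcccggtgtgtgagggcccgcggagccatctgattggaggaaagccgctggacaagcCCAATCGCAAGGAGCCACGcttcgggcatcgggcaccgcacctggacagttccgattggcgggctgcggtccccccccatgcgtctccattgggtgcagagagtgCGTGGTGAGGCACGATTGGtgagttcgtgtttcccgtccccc
Xbp1: accggCCAATCGCGGACGGCCACGaccct
Trib3: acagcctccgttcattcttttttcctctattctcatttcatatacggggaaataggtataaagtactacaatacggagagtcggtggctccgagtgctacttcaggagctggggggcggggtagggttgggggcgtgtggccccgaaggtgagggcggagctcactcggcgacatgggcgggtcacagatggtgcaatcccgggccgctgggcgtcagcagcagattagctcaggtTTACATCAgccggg

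In Hspa5 the ERSE lay 65 to 47 bases before the RefSeq start site. Hsp90b1 held 2 matches, 147 to 129 bases before the start and, on the opposite strand, 42 to 24 bases before it. The Xbp1 match lay 61 to 43 bases before an internal start at position 5420970 and inside the transcribed part of longer transcripts. The CARE of Trib3 was on the opposite strand, 14 to 7 bases before the M1 start. No member promoter held the ERSE-II (ATTGG and CCACG 1 base apart, 0.0805% of the genes), the UPRE core TGACGTGG (1.05%) or the CRE TGACGTCA (2.83%). A match is a description of letters, and occupancy by a factor was not measured.

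A strain had a call at a site if any peak in its list shared 1 bp or more with the site. The value of a site in a strain is the percentile of the signal of its highest peak among all peaks of that list, because the signal is the output of the authors' peak caller, and no source says that it was brought to a common scale across strains. A site that was not called is not shown to be closed. The lists held 26769 (DBA/2J) to 30613 (CBA/J) peaks, and read depth is not in them. In bulk liver, a difference in the cells present and a difference within the cells cannot be told apart. The promoters of 6 of 6 hepatocyte markers were called in at least 1 strain, with the Alb promoter called in 2 strains. Those of 2 (Apoa1 and Hnf4a, 33.3%) were called in all 9, beside 40.6% of all protein-coding genes. Of the markers of other liver cells, 1 of 6 was called in at least 1 strain (Lrat, 1 strain). Of other tissues it was also 1 of 6 (Ins2, 9 strains). The share of all genes called in at least 1 strain is not given here.

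The A/J list stood apart from the others. Of all sites called in a single strain, 5920 of 13778 (43%) were called in A/J, and of all sites called in 8 strains, 2742 of 4546 (60.3%) were missing in A/J. Among the member sites, 11 of the 23 single-strain sites were called in A/J, and all 6 sites called in 8 strains lacked a call in A/J, so that results are also given without that strain.

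Called sites fell mostly at both extremes. Of the 75 member sites, 28 (37.3%) were called in all 9 strains, beside 26.6% of all merged sites. Another 23 (30.7%) were called in 1 strain only, beside 26.5% of all sites, and 24 were called in 2 to 8 strains. Without A/J, 65 member sites remained, of which 33 (50.8%) were called in all 8 of the other strains, beside 35.6% of all sites, and 13 (20%) in a single one, beside 21.8%.

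**Figure D1:**
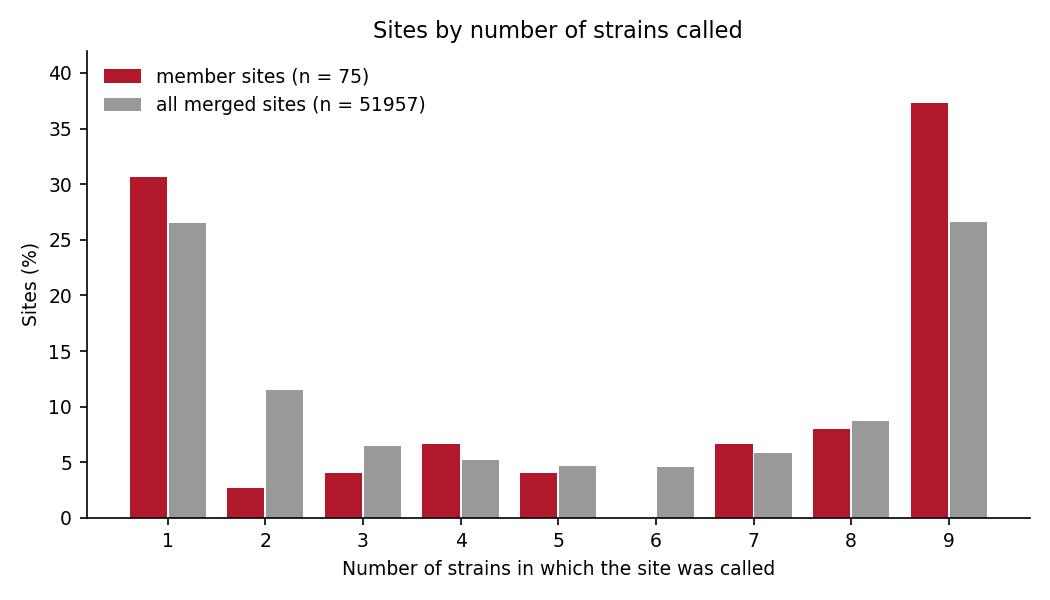
The share of sites (y axis, percent) by the number of strains in which they were called (x axis), for the 75 member sites (red) and all 51957 merged sites (grey). The member bars are highest at 9 strains (37.3%) and at 1 strain (30.7%), and none of the member sites was called in exactly 6 strains.

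Promoter and distal sites differed in how often they were shared. A site was placed at a promoter where it came within 1 kb of an annotated start of a protein-coding transcript. Of the 12 sites at a member's own promoter, 9 were called in all 9 strains, as were 9 of the 12 member sites at the promoter of a neighbouring gene, beside 53.2% of all promoter sites. Of the 51 distal sites, 10 (19.6%) were called in all 9 strains, beside 14.9% of all sites at no promoter. Of the 23 single-strain member sites, 20 (87.0%) were distal, near the 80.3% of all single-strain sites that lay at no promoter. The 12 own-promoter sites had a median percentile of 90.5, against 57.2 over all promoter sites. Without A/J these medians were 87.9 and 63.0. The 51 distal sites had a median of 27.2, against 24.5 over all sites at no promoter. All member sites outside the members' own promoters, those at a neighbour's promoter included, had a median of 28.9. Promoter sites called in all 9 strains ranked higher as a class: the 8419 such sites had a median of 82.7, which 7 of the 9 member promoters called in all strains exceeded.

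By gene, the promoter was called in all 9 strains in 9 of the 10 members, beside 40.6% of 22372 protein-coding genes. The exception was Creb3l3. The start site itself lay inside a peak in every strain in 8 of these 9 members, and in 8 of the 9 strains in Trib3, a count made for the members only. Ranked by median percentile, the order was Ddit3 (99.6), Dnajb9 (98.4), Hspa5 (97.4), Atf4 (94.7), Ern1 (94.5), Hsp90b1 (92.9), Xbp1 (88.1), Atf6 (69.2) and Trib3 (49.7). The ranges over the 9 strains overlapped between all neighbours in this order but one, since every Xbp1 value lay above every Atf6 value. Ddit3 ranked above Dnajb9 and Hspa5 above Atf4 in 9 of 9 strains, whereas Dnajb9 ranked above Hspa5 in 5 of 9, Atf4 above Ern1 in 4 of 9 and Ern1 above Hsp90b1 in 3 of 9.

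**Figure D2:**
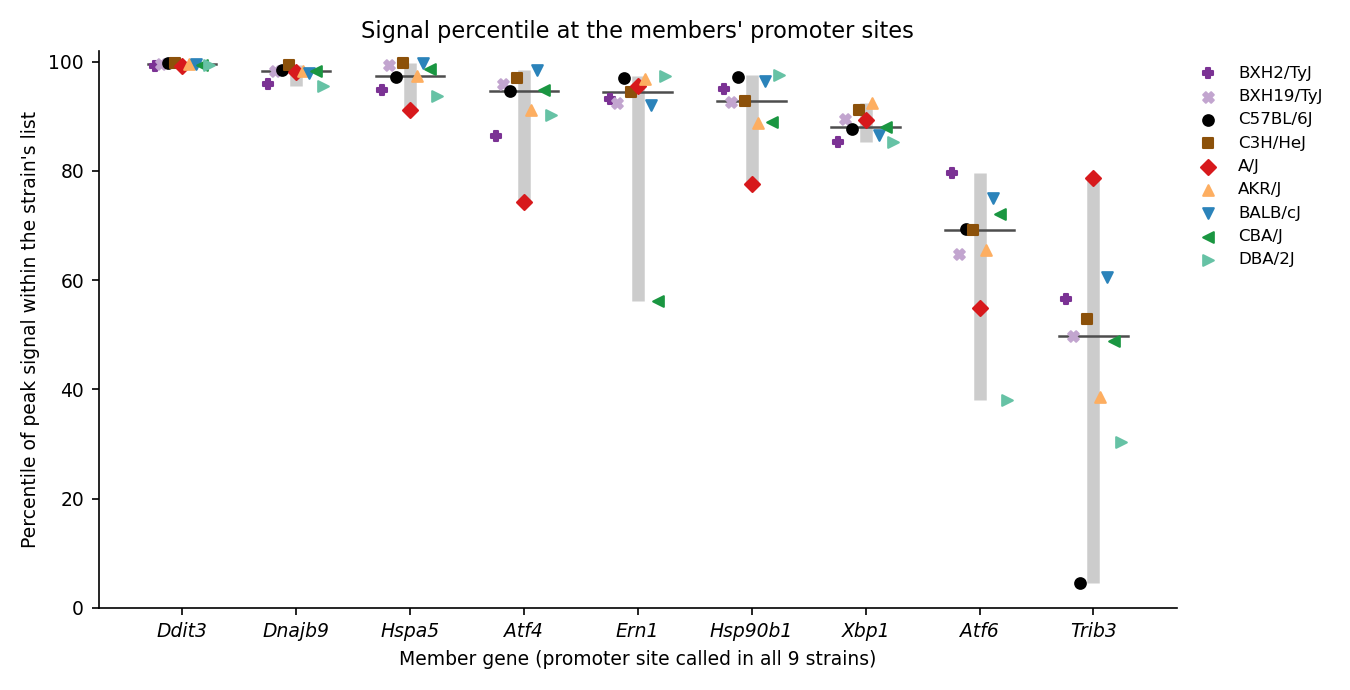
The signal percentile within each strain's list (y axis) at the promoter site of the 9 members called in all 9 strains (x axis, ordered by median). Each symbol is 1 strain, the grey bar is the range and the line the median. Ddit3 stays between 99.1 and 99.8, whereas Trib3 extends between 4.52 in C57BL/6J and 78.7 in A/J, with CBA/J alone at 56.2 for Ern1.

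Of the sensors, Ern1 encodes the ER membrane kinase and endoribonuclease that splices the Xbp1 mRNA. Its promoter site (chr11:106348437-106349899) was called in all strains, at percentiles of 93.2 in BXH2/TyJ, 92.4 in BXH19/TyJ, 97.1 in C57BL/6J, 94.5 in C3H/HeJ, 95.5 in A/J, 96.8 in AKR/J, 92.2 in BALB/cJ, 56.2 in CBA/J and 97.4 in DBA/2J. CBA/J was the only strain below 92. The CBA/J peak was 988 bp wide and its summit lay 16 bp upstream of the nearest start, in place of 57 to 89 bp upstream in the other strains, so that the peak itself was present and of ordinary width. The SD over the strains was 13.1, and 20.5% of the 8419 promoter sites called in all 9 strains had a larger one.

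Ern1 had the most sites of any member, 15 over a gene of 93203 bp. Of these, 8 were called in a single strain, with 3 in A/J, 2 in C57BL/6J, 2 in BXH19/TyJ and 1 in DBA/2J. The strongest distal site lay 13355 bp upstream (chr11:106361788-106363221), at 31.7 in A/J and between 79.8 and 94.2 in the other strains. The sites 14934 bp and 3745 bp upstream were each called in every strain but A/J, so that A/J was the lowest or was missing at all 3 upstream Ern1 sites called in more than 1 strain.

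Atf6 encodes the sensor that moves to the Golgi under stress and is cleaved there into a transcription factor. Its promoter site (chr1:172797023-172798189) was called in all strains at moderate height, 79.6 in BXH2/TyJ, 64.7 in BXH19/TyJ, 69.4 in C57BL/6J, 69.2 in C3H/HeJ, 54.9 in A/J, 65.5 in AKR/J, 75.1 in BALB/cJ, 72.2 in CBA/J and 38.1 in DBA/2J. A second site within 1 kb (chr1:172798641-172799072) was called in 8 strains, at 39.8 in BXH2/TyJ, 23.9 in BXH19/TyJ, 36.4 in C57BL/6J, 14.8 in C3H/HeJ, 39.7 in AKR/J, 45.6 in BALB/cJ, 40.5 in CBA/J and 12.9 in DBA/2J, with no call in A/J. DBA/2J was the lowest called strain at both sites.

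Only 1 of the variable sites near a member was shared by several strains, and it lay downstream of Atf6. The deposited variable and common lists hold 2539 sites each, the most and the least variable of a ranking by read counts between the 7 inbred strains. The site downstream of Atf6 (chr1:172627146-172627843) was in the variable list and was called in 7 strains, at 58.2 in BXH2/TyJ, 54.7 in BXH19/TyJ, 65.0 in C57BL/6J, 49.97 in AKR/J, 60.4 in BALB/cJ, 66.3 in CBA/J and 49.4 in DBA/2J. It was not called in C3H/HeJ or A/J, while both recombinant strains carried a call, as C57BL/6J did. The site beside it (chr1:172624794-172625773) was called in every strain, between 25.0 in A/J and 79.9 in CBA/J.

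Among the transcription factors, Xbp1 had the only member site in the common list. XBP1 is made in its active form after the product of Ern1 splices its mRNA. The promoter site (chr11:5420414-5422311) had percentiles of 85.3 in BXH2/TyJ, 89.4 in BXH19/TyJ, 87.7 in C57BL/6J, 91.1 in C3H/HeJ, 89.3 in A/J, 92.5 in AKR/J, 86.6 in BALB/cJ, 88.1 in CBA/J and 85.2 in DBA/2J, an SD of 2.49. Of the shared promoter sites, 89.0% had a larger SD. Its ERSE, printed above, lay inside this site. A second, narrow site within 1 kb upstream (chr11:5419765-5419954) was called in BXH2/TyJ alone, at 6.81.

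Upstream of Xbp1 lay 4 further sites, 9755 to 18115 bp from the gene's nearest start. The one 14643 bp upstream (chr11:5405618-5406419) was called in all strains, between 34.5 in BALB/cJ and 83.7 in C57BL/6J, and the other 3 were called in every strain but A/J. The site 11392 bp downstream (chr11:5433093-5433543) was called at 19.1 in BXH2/TyJ, 45.5 in BXH19/TyJ, 52.5 in C57BL/6J, 42.5 in C3H/HeJ, 39.8 in AKR/J, 34.5 in BALB/cJ and 48.1 in CBA/J, and was missing in A/J and DBA/2J. The Xbp1 promoter had a smaller SD over the strains than each of the other Xbp1 sites called in more than 1 strain.

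Atf4 encodes the transcription factor whose translation rises when the initiation factor eIF2 alpha is phosphorylated. Its promoter site (chr15:80084856-80087013) was at 86.3 in BXH2/TyJ, 95.8 in BXH19/TyJ, 94.7 in C57BL/6J, 97.0 in C3H/HeJ, 74.3 in A/J, 91.1 in AKR/J, 98.5 in BALB/cJ, 94.8 in CBA/J and 90.2 in DBA/2J. A/J was the lowest by a wide margin. The 6 distal Atf4 sites were weak, with median percentiles between 7.17 and 27.6, and none of them was called in all 9 strains.

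Ddit3 encodes CHOP, a factor induced by ATF4 that is known for promoting cell death under lasting stress. Its promoter site (chr10:126726767-126728519) ranked near the top of every list, at 99.1 in BXH2/TyJ, 99.6 in BXH19/TyJ, 99.8 in C57BL/6J, 99.7 in C3H/HeJ, 99.2 in A/J, 99.7 in AKR/J, 99.6 in BALB/cJ, 99.4 in CBA/J and 99.4 in DBA/2J. Only 42 of the 8419 shared promoter sites (0.499%) had a higher median. The site also fell within 1 kb of a start of Mbd6, and its summits lay 112 to 183 bp upstream of the nearest Ddit3 start. Another site within 1 kb (chr10:126728594-126728833) was called in DBA/2J alone, at 1.18. Percentiles near 100 leave little room for a spread, so the small SD (0.217) is not comparable with that of lower sites.

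Creb3l3 encodes a membrane-bound transcription factor that is abundant in liver and is cleaved in the Golgi. No site lay within 1 kb of its only coding start in GENCODE M1 (position 80561619), in any strain. The RefSeq promoter table places a second start of the gene at position 80555336, 6283 bp further into the gene. That start lay inside a site (chr10:80554982-80556216) called in all strains, at 79.5 in BXH2/TyJ, 90.3 in BXH19/TyJ, 93.9 in C57BL/6J, 91.9 in C3H/HeJ, 76.7 in A/J, 91.1 in AKR/J, 96.3 in BALB/cJ, 87.8 in CBA/J and 85.2 in DBA/2J. These percentiles were in the range of the other members' promoters. When the RefSeq starts were counted, an alternative chosen after seeing the data, all 10 members had a promoter called in all 9 strains. These starts were added for the members only, so this count has no share over all genes to be set beside it.

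The other 11 sites of Creb3l3 were spread over the gene body, the 20 kb below it and the promoters of Map2k2 and Thop1. A site within the gene (chr10:80554386-80554839) was called at 23.2 in BXH2/TyJ, 3.39 in BXH19/TyJ, 5.28 in C57BL/6J, 25.1 in C3H/HeJ, 51.4 in A/J, 25.2 in AKR/J and 36.0 in BALB/cJ, with no call in CBA/J or DBA/2J. A broad downstream site (chr10:80543538-80546147, 2610 bp) was called at 18.3 in BXH2/TyJ, 33.1 in C57BL/6J, 45.1 in A/J, 10.2 in BALB/cJ and 3.47 in DBA/2J. A/J was the highest strain at both of these sites, which were picked for their large SD. At the gene-body sites called in all 9 strains A/J was not the highest. It was the lowest at those starting at 80556859 (33.6) and 80554982 (76.7), and at 80553060 (62.8) it was below BALB/cJ (72.4). Beside the broad site lay a site of the variable list (chr10:80542379-80543441) that was called in A/J alone, at 22.8. The 200 bases about its A/J summit (chr10:80542840-80543039, reference sequence, minus strand) are shown with CpG dinucleotides in capitals, as the base composition (63.5% GC, 10 CpG) is the feature that could be read from the reference.
Variable site downstream of Creb3l3: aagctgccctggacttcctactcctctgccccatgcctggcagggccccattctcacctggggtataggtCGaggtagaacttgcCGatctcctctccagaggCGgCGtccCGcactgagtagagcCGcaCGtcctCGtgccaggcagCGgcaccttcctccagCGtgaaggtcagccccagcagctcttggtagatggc

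Of the chaperone promoters, those of Dnajb9 and Hspa5 had higher medians than every other member but Ddit3, whereas that of Hsp90b1 lay below those of Atf4 and Ern1. Hspa5 encodes BiP, the main ER chaperone, which also holds the sensors inactive. Its promoter site (chr2:34626856-34628387) was at 94.8 in BXH2/TyJ, 99.3 in BXH19/TyJ, 97.1 in C57BL/6J, 99.7 in C3H/HeJ, 91.1 in A/J, 97.4 in AKR/J, 99.8 in BALB/cJ, 98.6 in CBA/J and 93.7 in DBA/2J. All 9 values exceeded the median of the shared promoter sites. The summits lay 141 to 287 bp upstream of the nearest start, while the ERSE printed above lay closer to the start and within the site. Of the 3 other sites, 2 were at the promoter of Gapvd1, and the last, 12199 bp downstream, was called in 3 strains at no more than 12.4.

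Hsp90b1 encodes the ER member of the HSP90 family. Its promoter site (chr10:86167278-86169434), which also lay within 1 kb of a start of BC030307, was at 95.0 in BXH2/TyJ, 92.6 in BXH19/TyJ, 97.1 in C57BL/6J, 92.9 in C3H/HeJ, 77.7 in A/J, 88.8 in AKR/J, 96.4 in BALB/cJ, 89.0 in CBA/J and 97.6 in DBA/2J. A/J was again the lowest strain. The only other site, 12805 bp from the nearest start and downstream of the gene (chr10:86147967-86148788), showed the opposite, with 62.0 in A/J, against 35.8 in BXH2/TyJ, 27.8 in C57BL/6J, 28.9 in C3H/HeJ and 26.04 in BALB/cJ, and no call in the 4 remaining strains.

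Dnajb9 encodes a J-domain co-chaperone of BiP. Its promoter site (chr12:45310111-45311749) was at 95.8 in BXH2/TyJ, 98.4 in BXH19/TyJ, 98.4 in C57BL/6J, 99.5 in C3H/HeJ, 98.1 in A/J, 98.4 in AKR/J, 97.9 in BALB/cJ, 98.4 in CBA/J and 95.6 in DBA/2J. Its values lay between 95.6 and 99.5, so that, as for Ddit3, the small SD (1.27) is not comparable with that of lower sites. The only other site, at the promoter of Pnpla8 (chr12:45322620-45323310), belonged to the variable list and was called in A/J alone, at 20.1.

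Trib3 encodes a pseudokinase that is induced by ATF4 and CHOP and is known for inhibiting insulin signalling through AKT in liver. Its promoter site (chr2:152169096-152170460) had the lowest median and the widest spread of the shared member promoters, with 56.6 in BXH2/TyJ, 49.7 in BXH19/TyJ, 4.52 in C57BL/6J, 52.9 in C3H/HeJ, 78.7 in A/J, 38.6 in AKR/J, 60.5 in BALB/cJ, 48.8 in CBA/J and 30.4 in DBA/2J. The SD was 20.9, and 433 of the 8419 shared promoter sites (5.14%) had a larger one. The site was in neither deposited list.

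The low C57BL/6J value came from a different peak of the same site. In the 8 other strains the highest peak covered the annotated start and had its summit 27 to 77 bp upstream of it. C57BL/6J had a single peak of 277 bp that began 334 bp downstream of the start, with its summit at 455 bp. A separate peak at this downstream position was also present in BXH2/TyJ, C3H/HeJ, BALB/cJ and CBA/J, with summits 435 to 477 bp downstream and percentiles of 51.3 in BXH2/TyJ, 14.3 in C3H/HeJ, 16.9 in BALB/cJ and 0.181 in CBA/J. In A/J, 1 peak of 1006 bp spanned both positions. Both recombinant strains had the peak over the start, as did their parent C3H/HeJ, while their parent C57BL/6J did not. The CARE printed above lies at the start, within the peak of these 8 strains and outside the C57BL/6J peak.

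**Figure D3:**
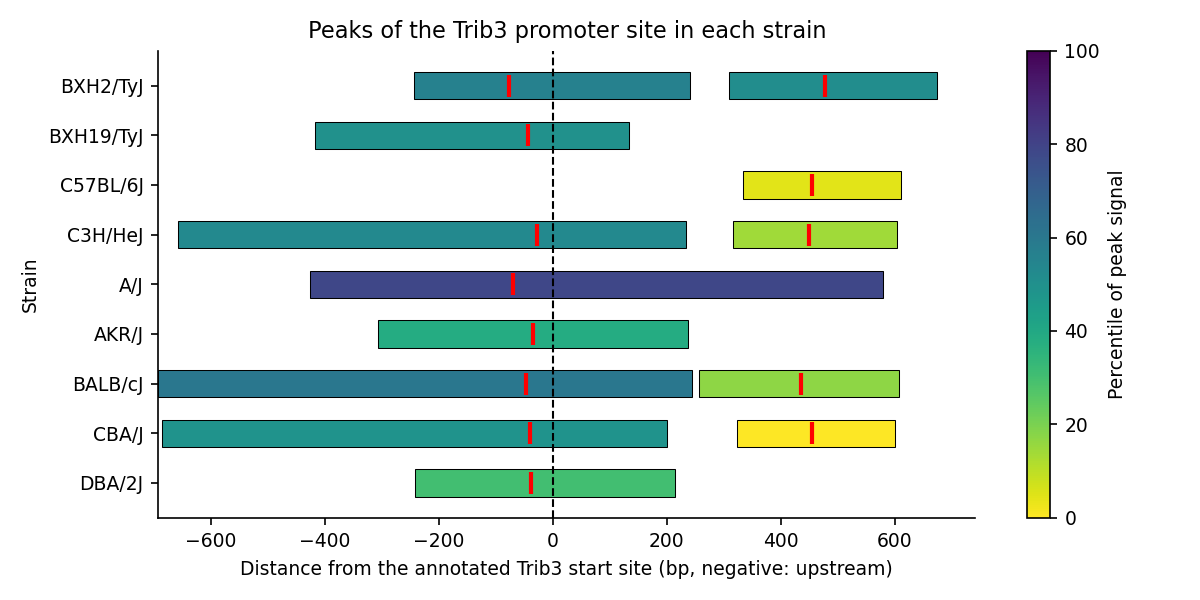
The peaks of the Trib3 promoter site in each strain (rows) by distance from the annotated start (x axis, bp, negative upstream). Bars are peaks coloured by percentile within the strain's list, red ticks are summits and the dashed line is the start. The C57BL/6J row alone has no bar over the start, and its single bar begins 334 bp downstream.

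Trib3 also had the most distal sites called in every strain, 4 of 8. Those 19776, 16626 and 15799 bp upstream had medians of 74.5, 89.2 and 49.3, and 1 in the gene body had a median of 54.5. The downstream site (chr2:152160044-152160559) was called at 3.71 in BXH2/TyJ, 28.8 in BXH19/TyJ, 45.7 in C57BL/6J, 30.1 in AKR/J, 31.5 in BALB/cJ, 7.06 in CBA/J and 29.0 in DBA/2J, and was missing in C3H/HeJ and A/J. C57BL/6J, the lowest strain at the promoter, was the highest at this site and at the sites 19776 and 16626 bp upstream. It was the second lowest at the site 15799 bp upstream (26.7) and the lowest at the neighbouring Rbck1 promoter (64.4), so that the Trib3 sites shared no single order of the strains.

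**Figure D4:**
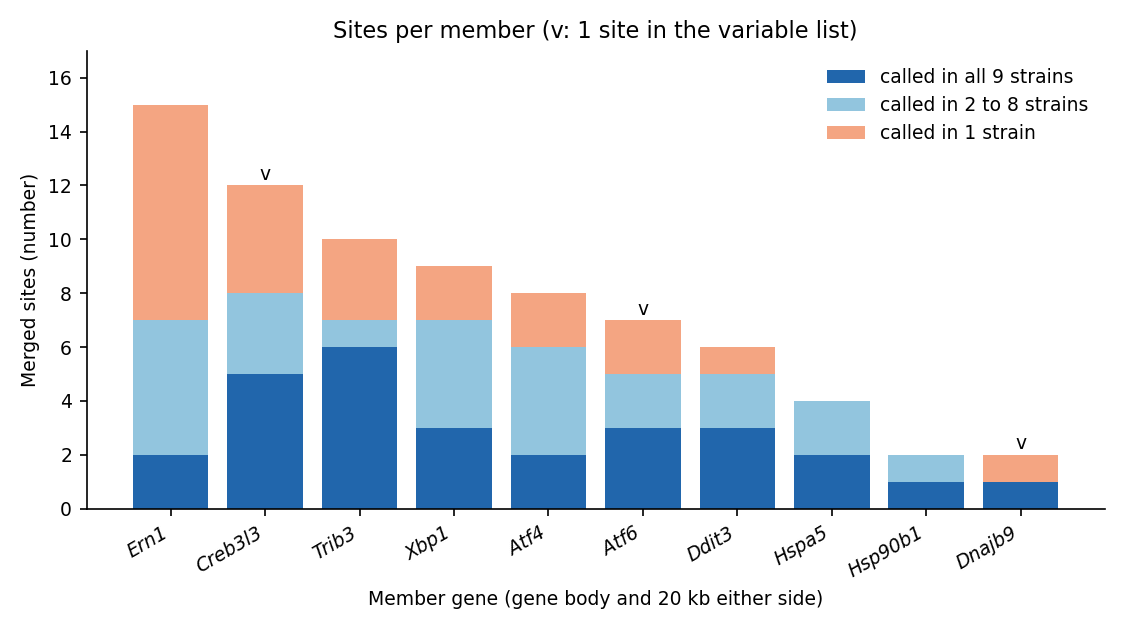
The number of merged sites per member (y axis) in the gene body and 20 kb on either side, stacked by the number of strains in which they were called. Ern1 has the most sites (15, of which 8 in 1 strain), Hsp90b1 and Dnajb9 the fewest (2 each), and a letter v marks the 3 members with a site of the variable list.

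In all, 3 of the 75 member sites were in the variable list, beside 4.87% of all merged sites, and 1 was in the common list, beside 4.89%. They gave 3 of the 10 members a variable site, Atf6, Creb3l3 and Dnajb9, beside 13.8% of protein-coding genes. With the A/J peaks left out, this number was 1 of 10, that of Atf6, beside 9.78% of protein-coding genes. The other 2 sites were called in A/J alone. The variable list itself was ranked with A/J included and was not remade, so the status of the Atf6 site without A/J is not known. The median SD between strains, with a missing call set to a percentile of 0, was 9.20 over the member sites, against 11.1 over all sites. The size of this gap depended on the setting. It was wider without A/J (7.41 against 10.1) and without CBA/J (8.69 against 11.5). It was small with the 7 inbred strains (11.36 against 11.96) and with the mean of a site's peaks in place of the highest (11.71 against 11.84). A smaller spread at the member sites is therefore not read from these values.

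**Figure D5:**
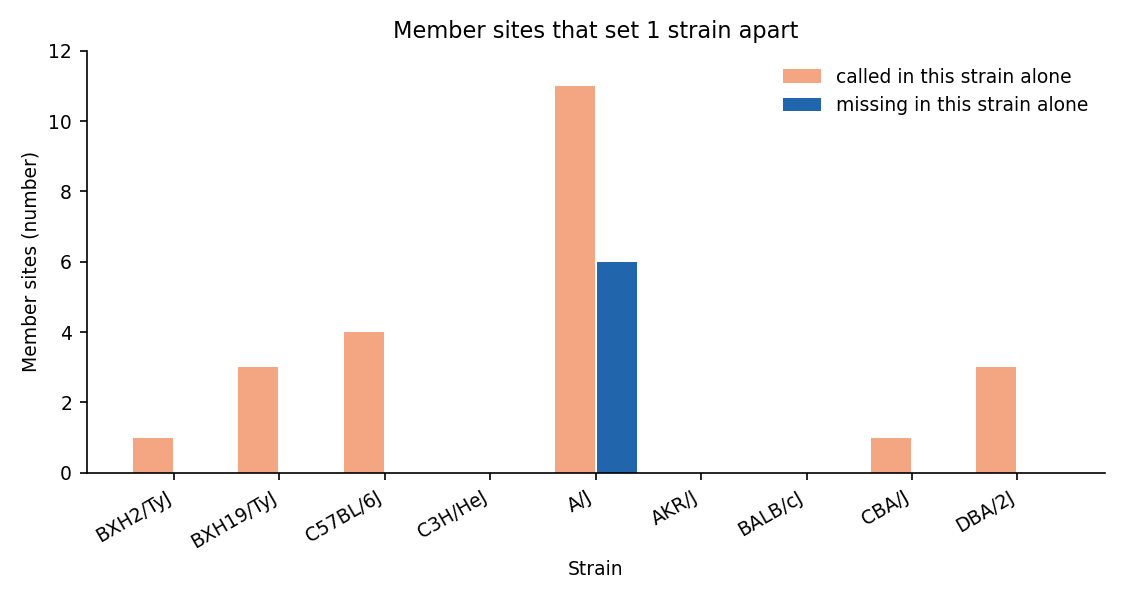
The number of member sites (y axis) that were called in 1 strain alone (orange) or missing in 1 strain alone (blue), by strain (x axis). A/J holds 11 of the 23 sites called in a single strain and all 6 sites missing in a single strain.

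The recombinant strains were set beside their parents at sites where the parents differed. At the 12 member sites called in C57BL/6J and not in C3H/HeJ, BXH2/TyJ was called at 5 and BXH19/TyJ at 3, and over all merged sites the shares were 32.4% and 33.6%. At the 3 member sites called in C3H/HeJ and not in C57BL/6J, BXH2/TyJ was called at 1 and BXH19/TyJ at 0, beside 44.4% and 47.3% over all sites. Where both parents were called, 38 of 38 member sites were called in BXH2/TyJ and 37 of 38 in BXH19/TyJ, beside 89.9% and 93.9%. The parental origin of each locus is not in the lists, so inheritance was not assessed.

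The wider ER stress response was described from 48 other genes of the pathway, grouped as sensors, transcription factors, chaperones and folding enzymes, ER-associated degradation and targets of the integrated stress response. Of these, 42 (87.5%) had a promoter called in all 9 strains, beside 40.6% of all protein-coding genes. Another 5 had one called in some strains (Mbtps2, Nupr1, Pdia6, Asns and Vldlr) and 1, Ern2, in none. The 9 of 10 among the members was close to the rest of the pathway. By group the counts were 3 of 5 sensors, 6 of 7 transcription factors, 14 of 15 chaperones, 12 of 12 degradation genes and 7 of 9 targets. A variable site was present near 4 of the 48 (8.33%), beside 13.8% of protein-coding genes. That of Vldlr, a lipoprotein receptor, lay at its own promoter and was called at 12.3 in A/J and 23.1 in AKR/J. That of Manf, a secreted ER stress protein, was called at 2.66 in BXH2/TyJ, 12.7 in BXH19/TyJ, 4.24 in C3H/HeJ and 62.5 in A/J. Those of Creb3l1 (A/J, 30.03) and Os9 (C57BL/6J, 0.0556) were called in a single strain.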

How the data were processed

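FAIRE-seq libraries of 18 livers, 2 mice in each of 9 strains, were processed by the authors. They aligned reads with bowtie to strain-specific versions of mm9 and called peaks with F-seq (feature length 400 bp), and combined replicates by IDR. Not given in the sources used here are tool versions and which of the 2 alignments of each recombinant strain was kept. The deposited lists give peak positions and a signal value. The variable and common lists were deposited as positions only, from the authors' DESeq ranking of the inbred strains.

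Peaks were merged into sites where they overlapped, and signal was turned into percentiles within a list. Gene models were those of GENCODE M1, whose assembly NCBIM37 equals mm9. RefSeq promoter sequences (GRCm38.p6) of the 9 members matched by symbol were all placed on mm9 by exact match. The members and lists were chosen with earlier results of these data known. Values are given per strain for sites at a member's promoter, sites in the variable or common list, and the 5 other sites with the largest SD that had a call in 2 or more strains and none in 2 or more. Other pathway genes are named where they had a variable site; the 6 with a promoter not called in every strain were named after their values were seen, as were the strongest distal sites. Promoter sequence was printed for the members with a motif match and for 1 of the 3 variable sites. No test between strains or of the member lists was run, and Dixon's gap was used only to single out values. Alternatives were a list of the 20000 highest peaks per strain, other windows, merging and overlap, and each strain left out. Merging, calling and percentiles were tested on simulated peaks and were correct in 50 of 50 runs. Tools were Python 3.11.15, numpy 2.4.6, pandas 2.3.3, pysam 0.24.0, matplotlib 3.10.9 and samtools 1.23.1.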

Additional observations from a re-analysis of the deposited data

Results flagged for a closer look

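Each of the member sites called in all 9 strains, and the number of member sites called per strain, was examined for 1 strain that stood far from the others, judged by its gap to the nearest strain as a share of the whole range. Of 29 such sets of 9 values, 6 were singled out, all of them sites and 5 of them because A/J was lowest. The rule singles out about 1 set in 20 by chance where values are independent and normal, which percentiles from the same 9 lists are not. Over all 13811 sites called in 9 strains it singled out 17.4%, and 10.9% with A/J lowest, beside 21.4% and 17.9% of the 28 member sites, so that nothing particular to the members is read from it. A/J was lowest at the promoters of Atf4 (percentile 74.3) and Hsp90b1 (77.7), at the site 13355 bp upstream of Ern1 (31.7), at the site 16626 bp upstream of Trib3 (67.8) and at the Mars promoter near Ddit3 (77.1). CBA/J was lowest at the Ern1 promoter (56.2). The A/J list also held more of the sites called in 1 strain than any other list of the series (5920 of 13778), and its part in these values was not tested. With 1 list per strain, a difference between strains and a difference between libraries cannot be told apart.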

How the results depend on the processing

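No paired analysis was possible because each deposited list combines both mice of a strain, so that replicate numbers carry no values and no replicate could be left out. The 10 results were recomputed in 21 settings, 136 values in all, of which 122 stayed near the value reported, within 1.5 times for counts and the SD and within the spread of the strains for median percentiles. With the 20000 highest peaks of each strain, there were 48 member sites, 8 called in 1 strain only and 1 in the variable list. Over all sites of that setting the counts were 7793 and 1799, and the total number of sites is not given here. In it 1 member had a variable site, beside 2115 of 22380 protein-coding genes. A window of 10 kb left 18 of 56 member sites called in all 9 strains, beside 28 of 75 with 20 kb. A window of 50 kb gave 44 such sites of 112, with 5 in the variable list and 3 in the common list. The median percentile outside the members' promoters was then 35.6. The counts change with the number of sites a window takes in, and the 26.6% over all sites does not depend on the window. Without the A/J peaks, 13 of 65 sites were called in 1 strain only, beside 21.8% of all sites. In that setting 1 member had a site of the variable list, beside 9.78% of protein-coding genes, and the list itself was left unchanged. The median percentile of the members' promoter sites was 94.5 with a promoter window of 500 bp and 77.5 with 2 kb. It was 79.2 with the mean of a site's peaks in place of the highest. Over all promoter sites the medians in these settings were 62.3, 50.7 and 55.7. The number of members with a promoter called in all 9 strains was 9 without any one strain. It was 10 with RefSeq starts added and 8 when the start itself had to lie inside a peak. The last 2 settings were chosen after seeing the data and were run for the members only, with no share over all genes. The lists hold no counts, and the percentile has no replicate error. The paper's supplement does report filtered reads for each library. By those figures both A/J libraries were smaller than every library of the other inbred strains, while a BXH19/TyJ library was smaller still. The relation of depth to missing calls was not tested.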
